A study of Mus musculus with 7 samples.

Results

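Xcr1 dendritic cells are a rare class of antigen presenting cell in the mouse seminal vesicle, the accessory gland that makes most of the fluid of the ejaculate. They were chosen in this single-cell RNA-seq atlas from the UMIs (counted RNA molecules) of a few genes in each cell. A cell was kept with at least 500 genes, at most 10% of its UMIs on mitochondrial genes, at least 2 UMIs of Xcr1, Clec9a and Wdfy4 together, at least 5 UMIs of Cd74, at most 2 UMIs of C1qa, C1qb and C1qc together, and 0 UMIs of Cd3e and Cd79a. This left 141 cells among the 40342 that met the limits on genes and mitochondrial UMIs, of 53352 deposited, and they came from 22 of the 23 mice. The genes of the rule chose the cells, so their levels are given below as a description and without a test.

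Conventional dendritic cells fall into classes. The class marked by XCR1 and CLEC9A (cDC1) depends on the transcription factors IRF8 and BATF3, takes up material from dead cells and presents it on MHC class I to CD8+ T cells, a route known as cross-presentation. XCR1 is the receptor for the chemokine XCL1, which CD8+ T cells and NK cells release, and in mucosal tissues cDC1 commonly carry the integrin CD103, encoded by Itgae.

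The cells were drawn from 3 kinds of library. The aging pool held 10 C57BL/6J males on 5P76 chow, of which 2 were 3 months old, 4 were 20 months old and 4 were 28 months old, with 2 of the 4 at each older age treated with rapamycin. The diet pool held 8 FVB/NJ males of 3 months, 2 each on a control diet, a high fat diet, a low protein diet and caloric restriction. In 5 further libraries each held 1 FVB/NJ male: 3 were 3 months old and had been fed the control diet, the high fat diet or the low protein diet, and the other 2, on control diet, were a young individual (3 months) and an old one (18 months). The glands had been opened, rinsed of luminal fluid and dissociated with enzymes, and the cells were passed through a density gradient. Strain was therefore tied to the library pool, and every mouse of 20 or 28 months was C57BL/6J.

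The depth was 971402 to 46333394 UMIs per mouse, and 896592 UMIs fell in the Xcr1 dendritic cells. The young and the old individual stood apart from all other libraries. Svs5, which encodes a major secretory protein of the gland, was at 3.55 and 3.04 counts per 1000000 UMIs (CPM) in their cells, against 34607 to 340816 CPM in the other 21 mice. Gpx5, which encodes a glutathione peroxidase secreted by the epididymis, was at 7582 CPM in their Xcr1 dendritic cells and 10107 CPM in their macrophages, and had 0 UMIs in the Xcr1 dendritic cells of all other mice. Defb20, an epididymal defensin, was at 3324 CPM in the same 14 cells and likewise at 0 in the others. The labels call both libraries seminal vesicle, and whether they hold cells of a neighbouring tissue was not tested. Their 14 Xcr1 dendritic cells were kept, and the main counts are given with and without them. Mice of the same pool shared 0 cell barcodes, and the pairs of libraries shared at most 0.407% of the barcodes of the smaller one.

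Of the rule's genes, Wdfy4, a BEACH-domain protein required for cross-presentation (chr14:32959547-33185508, minus strand, GRCm38), had a UMI in 115 of the 141 cells (81.6%). Xcr1 (chr9:123852315-123862029, minus strand) had one in 97 cells (68.8%) and Clec9a, a receptor for actin exposed by dead cells (chr6:129408862-129424763, plus strand), in 75 cells (53.2%). All 3 were seen in 40 cells (28.4%), 35 cells (24.8%) showed only 1 of the 3, and 20 of these 35 showed Wdfy4 alone. The summed UMIs of the 3 genes had a median of 3 and a highest value of 16. Cells with at least 2 UMIs of 1 of these genes met the first limit of the rule by construction. In the whole series 53 cells had at least 2 UMIs of Xcr1, of which 49 (92.5%) were members, and 35 had at least 2 UMIs of Clec9a, of which 33 were. For Wdfy4 these were 93 cells, of which 76 were. At least 1 UMI was seen in 138 cells for Xcr1, 101 for Clec9a and 322 for Wdfy4, of which 97 (70.3%), 75 (74.3%) and 115 (35.7%) were members.

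The given marker outside the rule, Itgae, was frequent in these cells and nearly absent from their neighbours. Itgae (chr11:73090583-73147446, plus strand) had a UMI in 75 of the 141 cells (53.2%, exact 95% binomial interval 44.6 to 61.6%), in 4 of 1149 macrophages (0.348%) and in 1 of 106 cDC2/monocyte-like cells (0.943%). Without the young and the old individual it was seen in 69 of 127 Xcr1 dendritic cells (54.3%, 45.3 to 63.2%). The 2 comparison groups met the same limits, had 0 UMIs of Xcr1, Clec9a and Wdfy4, and held at least 10 UMIs of the C1q genes or at least 2 UMIs of Cd209a, Clec10a, Ccr2 and Ly6c2 together. When every cell was thinned to 1000 UMIs, Itgae was seen in 22.0% of Xcr1 dendritic cells and in 0% of either comparison group. The median depth was 5642 UMIs per cell in the Xcr1 dendritic cells, 4410 in the cDC2/monocyte-like cells and 3238 in the macrophages. Intervals of this kind cover counting error only.

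All 22 genes listed as cDC1 genes outside the rule, Itgae among them, had UMIs in the Xcr1 dendritic cells, with a summed level of 3988 CPM against 1434 CPM in the cDC2/monocyte-like cells and 1679 CPM in the macrophages. Naaa, a lysosomal amidase, was seen in 80.1% of Xcr1 dendritic cells, 21.7% of cDC2/monocyte-like cells and 8.44% of macrophages. Irf8, the transcription factor of the lineage, was seen in 80.1%, 17.9% and 37.9%. Batf3, its partner, was sparse and had a UMI in 24.1% of the cells against 13.2% and 6.53%.

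Cells just inside the limit of the rule were shallower than the rest. The 46 cells with exactly 2 UMIs of Xcr1, Clec9a and Wdfy4 had a median of 3688 UMIs, Itgae in 28.3% and Naaa in 76.1%. The 91 cells just outside it, which met all other limits with exactly 1 UMI, had a median of 2530 UMIs, Itgae in 14.3% and Naaa in 53.8%. The 95 cells with 3 or more had a median of 6664 UMIs, Itgae in 65.3% and Naaa in 82.1%.

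Markers of T and NK cells, B cells, macrophages and plasmacytoid dendritic cells were low in the Xcr1 dendritic cells, while epithelial transcripts were abundant in some libraries. The rule left out cells with a Cd3e or Cd79a UMI and capped the C1q genes. Low T cell, B cell and macrophage levels were therefore in part set by the choice of the cells. Of 12 T and NK cell genes 7 were at 0 and the list summed to 15.6 CPM, with Il2rb the most abundant at 7.81 CPM. Of 8 B cell genes 3 were at 0, with a sum of 95.9 CPM led by Ighm at 58.0 CPM. Of 16 macrophage genes 4 were at 0, the defining genes Trem2, Ms4a7, Cd163 and Fcgr1, and the sum of 704 CPM, led by Apoe at 178 CPM, compared with 32260 CPM in macrophages. Of 7 genes of plasmacytoid dendritic cells 2 were at 0, with a sum of 209 CPM led by Bst2 at 143 CPM. The 9 secretory genes summed to 50128 CPM, with Svs5 at 25475 CPM in the lead, against 54348 CPM in macrophages and 14790 CPM in the cDC2/monocyte-like cells, but the near equality with macrophages did not hold within the sets of libraries. In the aging pool the sum was 63034 CPM in the Xcr1 dendritic cells and 50814 CPM in macrophages, in the diet pool 10051 and 71912 CPM, in the diet single-mouse libraries 224280 and 80290 CPM, and in the young and old individual 0 and 3.52 CPM. The 9 genes of other epithelium, the epididymal genes among them, summed to 11460 CPM in the Xcr1 dendritic cells of the young and old individual and to 281 to 395 CPM in the other sets. All 12 genes of stroma and vessels had UMIs, with a sum of 928 CPM led by Dcn, decorin, at 281 CPM, against 793 CPM in macrophages and 441 CPM in the cDC2/monocyte-like cells. Of 4 red blood cell genes 2 were at 0, with a sum of 7.81 CPM led by Hbb-bs at 6.69 CPM. The part of RNA from these other cells in the results was not tested. The cDC2/monocyte-like cells carried immunoglobulin transcripts at 18106 CPM over the B cell list, of which Igkc made up 14522 CPM. This value came from the aging pool, at 31820 CPM, against 67.3 CPM in the diet pool, 79.5 CPM in the young and old individual and 872 CPM in the diet single-mouse libraries. A doublet caller marked 2 of the 141 cells, 7 of the 106 cDC2/monocyte-like cells and 21 of the 1149 macrophages, among 1753 cells marked in the series.

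Next, the level of each gene was compared with other antigen presenting cells of the same mouse, which asks what the Xcr1 dendritic cells carried beyond the genes that chose them. UMIs were summed per mouse and cell group and tested by the quasi-likelihood method of edgeR (Benjamini-Hochberg adjustment, each mouse its own block) over mice with at least 5 cells of both groups. Since both groups were picked on RNA of the same cells, the p-values concern genes outside the rules in cells that the rules picked. A gene entered the test if enough samples reached the limit of the filter on low counts (40.7 CPM against macrophages and 99.6 CPM against the cDC2/monocyte-like cells). Where 1 group alone carried a gene through, that is where the other group's samples reached the limit too seldom for the filter, the gene had to differ to be tested. Values of such genes are given as a description without a p-value, and counts are given also without them, a split chosen after the data were seen. Fold changes are on edgeR's log2 scale with their standard error (SE), and levels are CPM as mean ± SD over the mice tested. Ranges are given as the lowest, median and highest CPM over all mice with at least 5 cells of the group, which were 15 for the Xcr1 dendritic cells, 8 for the cDC2/monocyte-like cells and 23 for the macrophages.

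Against the macrophages of the same 15 mice, Xcr1 dendritic cells were higher in the lineage gene Irf8, the lysosomal genes Ppt1 and Gm2a and the actin-binding genes Lsp1 and Tmsb10, and lower in Apoe, Cd14, Ctss and Ccl4. Of 2375 genes tested 1013 differed (42.7%), 387 higher (16.3%) and 626 lower (26.4%). Among the 1800 genes that did not pass the filter through 1 group alone, 643 differed (35.7%), 316 higher (17.6%) and 327 lower (18.2%). Of the 22 listed cDC1 genes 12 were tested, since the others were too sparse, and 5 of these passed through the Xcr1 dendritic cells alone (Itgae, Naaa, Cd24a, Ifi205 and Rab43). Of the other 7, Irf8, Ppt1 and Havcr2 were higher and none lower, with a median log2 fold change of 0.70, against -0.00357 over the 1800 genes. The cDC1 list was drawn up with earlier results of these data known. Havcr2 lost its call without the filter (edgeR adjusted p = 0.202) and with cells thinned to 2000 UMIs (0.135).

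Itgae ranged from 35.6 CPM over a median of 209 CPM to 357 CPM in the Xcr1 dendritic cells of the 15 mice. It was at 0 in the macrophages of 20 of 23 mice, with a highest value of 27.2 CPM. All macrophages together held 4 UMIs of Itgae. Naaa (chr5:92257659-92278170, minus strand) ranged from 142 over 570 to 1561 CPM in the Xcr1 dendritic cells and from 0 over 14.8 to 63.8 CPM in macrophages. Itgae and Naaa entered the test through the Xcr1 dendritic cells alone, so nothing is read from the gap between the groups. Irf8 ranged from 265 over 628 to 2146 CPM against 67.3 over 184 to 547 CPM, so that the ranges overlapped, and its log2 fold change was 1.73 (SE 0.184, edgeR adjusted p = 1.54e-08, n = 15 mice). Ppt1, a lysosomal thioesterase, was at 442 ± 135 CPM against 69.3 ± 34.5 CPM. Cd24a, a surface glycoprotein used to mark cDC1, was at 252 ± 132 CPM against 33.3 ± 31.0 CPM. Rab43, a GTPase tied to cross-presentation, was at 84.6 ± 60.3 CPM against 28.6 ± 20.4 CPM, and Ifi205 and Havcr2, which encodes TIM-3, completed the called genes.

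Outside the lists, the genes with the largest increases over macrophages were Napsa, an aspartic protease, at 300 ± 146 CPM against 8.75 ± 10.7 CPM, Sept6, a septin of the cytoskeleton, and Cbfa2t3, a transcriptional corepressor, at 223 ± 93.2 CPM against 9.55 ± 14.0 CPM. Pkib, an inhibitor of protein kinase A, Lsp1, an actin-binding protein of leukocytes, S100a11, Tmsb10 and Gm2a, a lysosomal lipid carrier, completed the set. Being higher in each of the 15 mice was part of the rule that named these 8, so nothing is read from it. Napsa, Sept6, Cbfa2t3 and Pkib entered the test through the Xcr1 dendritic cells alone, and the other 4 rose by log2 fold changes of 2.78 to 3.83.

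**Figure D1:**
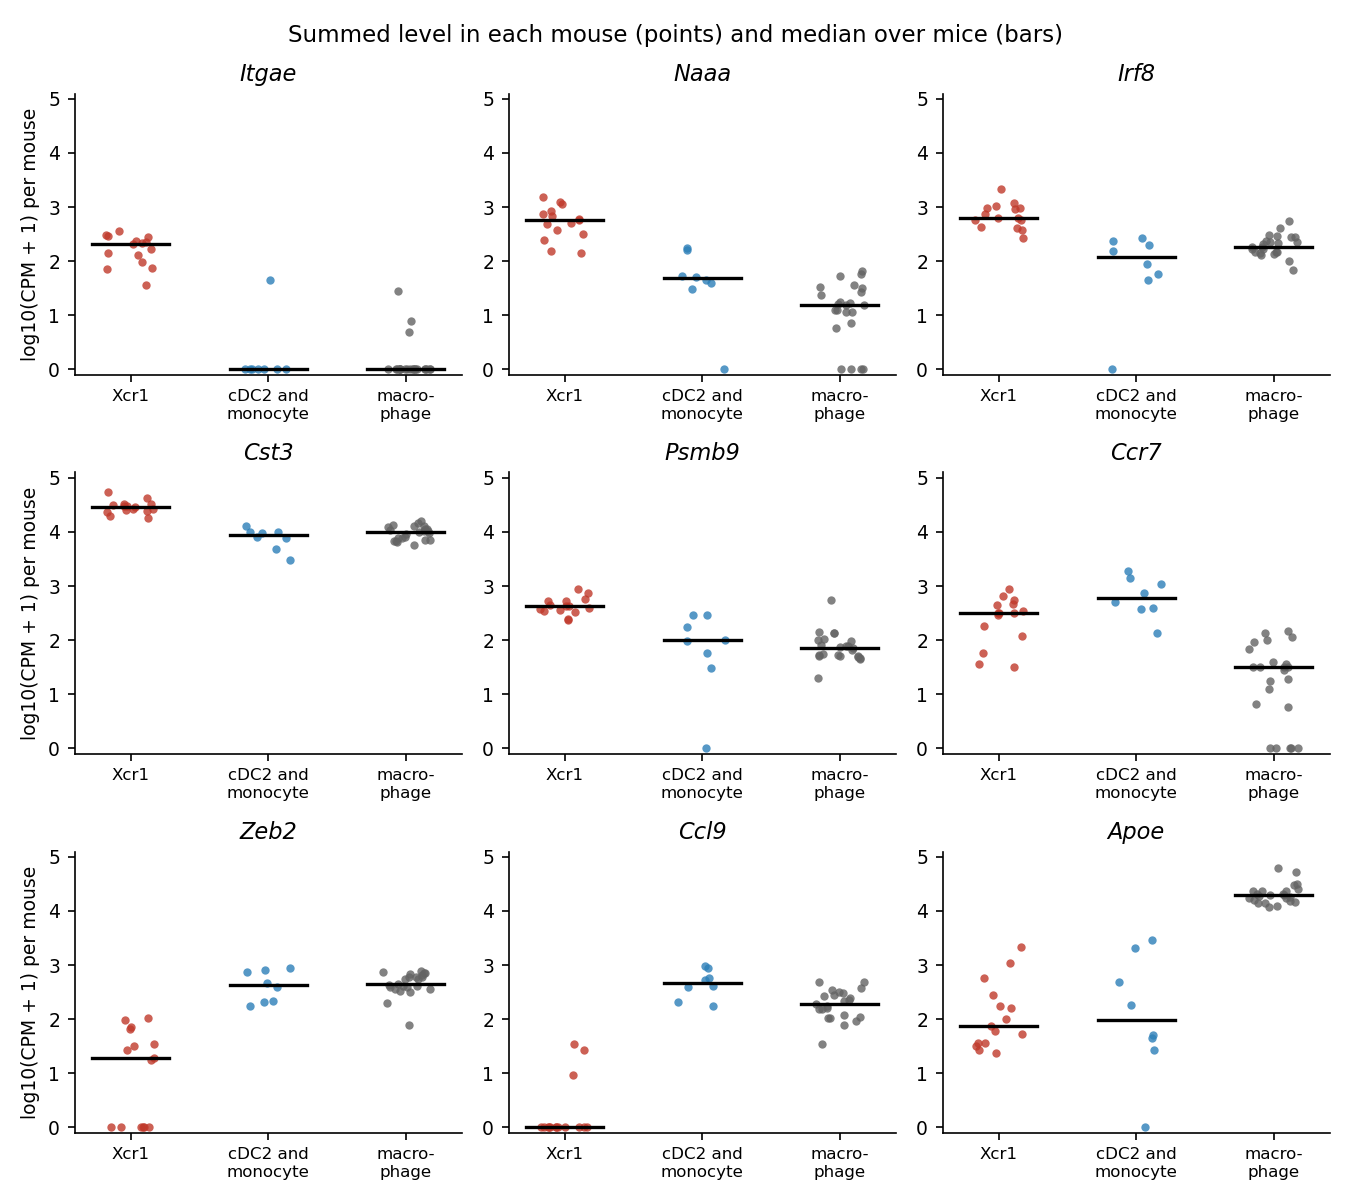
Each panel plots the level of 1 gene as log10(CPM + 1), with a point for each mouse with at least 5 cells of the group and a bar at the median over mice, for the Xcr1 dendritic cells (15 mice), the cDC2/monocyte-like cells (8 mice) and the macrophages (23 mice). Itgae reached 357 CPM in the Xcr1 dendritic cells and at most 44.3 CPM in the cDC2/monocyte-like cells, Cst3 did not overlap either comparison group, and Apoe lay below every macrophage value.

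The tested genes of the macrophage list were lower. Of 16 listed genes 14 were tested and all 14 were lower, beside 26.4% lower of all genes, with a median log2 fold change of -5.69. Of these 9 had passed the filter through the macrophages alone, so that their direction was set by the filter. The other 5, Apoe and Cd14 among them, were all lower, beside 18.2% of the 1800 genes, with a median of -4.21. Apoe, the lipid carrier, ranged from 23 over 75.0 to 2156 CPM in Xcr1 dendritic cells and from 11770 over 19424 to 61555 CPM in macrophages, without overlap (log2 fold change -7.23, SE 0.475, edgeR adjusted p = 2.23e-12, n = 15 mice). Pf4, a chemokine of tissue macrophages, was seen in the Xcr1 dendritic cells of 1 of 15 mice and in the macrophages of all 23. Ms4a7, Trem2, a lipid receptor, and outside the list Ccl8, Ccl12 and the transcription factor gene Spic had 0 UMIs in the Xcr1 dendritic cells of these mice. Against a floor of 3 UMIs over the group they were at least 124-fold, 80.4-fold, 397-fold, 289-fold and 24.1-fold lower. C5ar1, the C5a receptor, was at 0.767 ± 2.97 CPM against 355 ± 192 CPM, and Mrc1, the mannose receptor, at 3.50 ± 8.84 CPM against 553 ± 255 CPM. The rule capped C1q, so the direction of this list was in part set by the choice of the cells.

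Of the 25 antigen presentation genes tested 16 were called, 9 higher and 7 lower, beside 42.7% of all genes, 16.3% higher and 26.4% lower, and from lists this small and chosen with earlier results known nothing is read from these shares. Of the 12 MHC class II genes 8 were tested against macrophages, and the class II editors H2-DMb2, H2-DMa and H2-DMb1 were higher while the lysosomal proteases Ctss and Lgmn were lower, with a median log2 fold change of 0.11 over the 8. The class II chains themselves did not pass the test. H2-Ab1 stood at 7677 ± 1653 CPM against 6767 ± 1769 CPM and H2-Aa at 8957 ± 3074 CPM against 7515 ± 2023 CPM. H2-DMb2 was at 153 ± 87.1 CPM against 58.1 ± 39.5 CPM (log2 fold change 1.47, SE 0.246, edgeR adjusted p = 1.86e-05, higher in 14 of 15 mice). Ctss ranged from 93.2 over 460 to 593 CPM against 1040 over 1777 to 2735 CPM in macrophages and did not overlap. Of the 21 genes of MHC class I and cross-presentation 17 were tested, 6 were higher and 5 lower, with a median log2 fold change of -0.23. Higher were Psmb9 and Psmb8, subunits of the immunoproteasome, Psme1, an activator of it, Tap1 and Tap2, the peptide transporter of the endoplasmic reticulum, and Sec61b, a subunit of its protein channel. Lower were the class I chains H2-K1 and H2-D1, their partner B2m, the chaperone gene Canx, and Cybb, the phagosomal NADPH oxidase. Psmb9 was at 454 ± 175 CPM against 110 ± 124 CPM and was higher in 15 of 15 mice, while B2m was at 1231 ± 411 CPM against 2021 ± 646 CPM and lower in 15 of 15. Several of these calls were lost under other settings, with the direction kept. Without the filter on low counts H2-DMa (edgeR adjusted p = 0.0883), H2-DMb1 (0.524) and Sec61b (0.520) did not pass, and with cells thinned to 2000 UMIs H2-DMb1 (0.0532) and Sec61b (0.0691) did not. With at least 10 cells per mouse B2m (log2 fold change -0.45, edgeR adjusted p = 0.194), H2-DMb1 (0.0627) and Canx (0.0997) did not pass, nor did Canx with library size as the scaling (0.0649). Lgmn and Cybb passed the filter through the macrophages alone and Tap2 through the Xcr1 dendritic cells alone.

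Of 24 cytokine and chemokine genes, which encode secreted factors, 15 were tested against macrophages, 12 were lower and 1 higher, beside 26.4% lower and 16.3% higher of all genes, with a median log2 fold change of -4.06. Of the 9 that had not passed the filter through 1 group alone 6 were lower (Il1b, Tnf, Cxcl16, Ccl2, Ccl3 and Ccl4) and Ccl22 higher, beside 18.2% lower and 17.6% higher of the 1800 genes, with a median of -0.87, and Cxcl16 lost its call with at least 10 cells per mouse (edgeR adjusted p = 0.0657). Ccl4 ranged from 0 over 293 to 9556 CPM in the Xcr1 dendritic cells and from 4466 over 18321 to 41291 CPM in the macrophages, and Cxcl2, a neutrophil chemokine outside the list, was at 135 ± 167 CPM against 10631 ± 5898 CPM. Ccl22, which draws T cells through CCR4, was the gene that was higher, at 406 ± 407 CPM against 81.8 ± 81.7 CPM (log2 fold change 2.14, SE 0.252, edgeR adjusted p = 1.26e-07, higher in 13 of 15 mice). Among receptors 15 of 20 were tested and 3 were higher, namely Ccr7, the receptor for lymph node chemokines, Il1r2, the interleukin 1 decoy receptor, and Csf2rb, the shared chain of the GM-CSF receptor, which has a close copy in the mouse, while 8 were lower. Of the 7 that had not passed the filter through 1 group alone 1 was higher (Csf2rb) and 3 were lower. Beside 16.3% higher and 26.4% lower of all genes nothing is read from the receptor counts. Csf1r, the receptor of macrophage survival, was at 5.58 CPM pooled over all Xcr1 dendritic cells against 470 CPM over all macrophages. Of the other dendritic cell genes 7 of 12 were tested, and Traf1, a signal adaptor, and Csf2rb were higher, from which nothing is read either.

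Pattern recognition receptors were sparse. Only 3 of 18 could be tested against macrophages, Clec4a2, Tlr2 and Ifih1, and all 3 were lower, beside 26.4% lower of all genes. They had entered the test through the macrophages alone, so that the filter set their direction and nothing is read from this count. Tlr3, the receptor for double-stranded RNA that cDC1 are known for, had 31 UMIs in 22 Xcr1 dendritic cells (15.6%), 0 UMIs in the 106 cDC2/monocyte-like cells, and a UMI in 1.57% of macrophages. In the whole series 835 cells had a Tlr3 UMI, and the 22 cells made up 2.63% of them, so Tlr3 alone does not mark the class. Tlr1, Tlr4, Tlr6, Tlr7 and Tlr9 had 0 UMIs in the 141 cells, which allows a share of cells with a UMI of up to 2.13% by a floor of 3 counts. In macrophages Tlr7 was seen in 19.2% of cells and Tlr4 in 4.35%.

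Of 19 genes of the response to tissue dissociation, 15 were lower than in macrophages and none higher, beside 26.4% lower and 16.3% higher of all genes, with a median log2 fold change of -1.35. The list summed to 9899 CPM in the Xcr1 dendritic cells, 10673 CPM in the cDC2/monocyte-like cells and 26150 CPM in the macrophages, and the part of dissociation in the differences from macrophages was not tested. Without the young and the old individual 897 genes differed from macrophages over 13 mice, 869 of them among the 1013. Canx lost its call there (edgeR adjusted p = 0.0551), as did Il1b (0.0533), which was among the 12 lower cytokine genes, and Jund (0.114) and Dnajb1 (0.0584) of the 15 stress genes. Jund and Dnajb1 also lost their calls in DESeq2 (adjusted p = 0.0768 and 0.132) and with library size as the scaling (edgeR adjusted p = 0.0538 and 0.0551).

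The comparison with the cDC2/monocyte-like cells rests on 7 mice, which were both untreated 28-month mice of the aging pool, caloric restriction mouse 1, the control and high fat single mice and the young and old individuals. Xcr1 dendritic cells were higher in Irf8 and Cst3 and lower in Lyz2, Il1b, Ccl4, Cd14 and Ctsb. They also carried more Naaa, Ppt1 and Psmb9 and less Ccl9, Ccl5, Zeb2, Cebpb and Cybb. The genes of this second set entered the test through 1 group alone, so that the filter set their direction. Of 1034 genes tested 77 differed (7.45%), 21 higher (2.03%) and 56 lower (5.42%). Among the 767 that had not passed the filter through 1 group alone 33 differed (4.30%), 9 higher (1.17%) and 24 lower (3.13%). DESeq2, with its own scaling, called 37 higher and 58 lower, and 74 of the 77 were among them. With at least 3 cells per mouse over 13 mice the split was near even, with 58 higher and 62 lower. Of the 22 cDC1 genes 7 were tested, and 3 of them were higher (Naaa, Ppt1 and Irf8) and none lower. Naaa, Ppt1, Cd24a and Ifi205 passed the filter through the Xcr1 dendritic cells alone, which leaves Irf8 as 1 of 3 (log2 fold change 2.27, SE 0.445, edgeR adjusted p = 0.00496, n = 7 mice). Itgae itself was too sparse in this comparison to be tested.

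Cst3, cystatin C, a protease inhibitor long known as abundant in dendritic cells (chr2:148871722-148875692, minus strand), ranged from 17995 over 28743 to 53761 CPM in Xcr1 dendritic cells, from 2986 over 8770 to 12991 CPM in the cDC2/monocyte-like cells and from 5819 over 9936 to 15945 CPM in macrophages. The Xcr1 dendritic cells lay above both other groups without overlap, and the log2 fold change over the cDC2/monocyte-like cells was 1.96 (SE 0.198, edgeR adjusted p = 8.87e-05, n = 7 mice). UMIs tag one end of each molecule and are not scaled by gene length, and with 26191 UMIs Cst3 came second in the 141 cells only to Tmsb4x, an actin-binding peptide, with 34704. Naaa was at 780 ± 445 CPM against 72.2 ± 67.4 CPM. Ppt1 was at 482 ± 156 CPM against 56.9 ± 55.9 CPM, and Irf8 at 910 ± 647 CPM against 143 ± 99.3 CPM. Psmb9 was at 431 ± 219 CPM against 122 ± 118 CPM. Thinned to 2000 UMIs per cell, only 3 mice remained, 31 genes differed, Cst3 kept its call and Irf8 did not (log2 fold change 1.64, edgeR adjusted p = 0.299).

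The other genes with the largest increases were Tbca, a tubulin chaperone, Cyb5a, cytochrome b5, Ccdc12, Myl12b, a myosin light chain, and Tmsb10, an actin-binding peptide. Tbca, Cyb5a and Ccdc12 passed the filter through the Xcr1 dendritic cells alone, and Myl12b and Tmsb10 rose by log2 fold changes of 1.10 and 1.03. None of these 5 passed the test without the young and the old individual, with edgeR adjusted p = 0.0560 for Tmsb10 and 0.231 for Myl12b over 5 mice. In the same 5 mice 63 genes differed, 48 of them among the 77.

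Zeb2, a repressor that opposes the cDC1 fate (chr2:44983632-45117395, minus strand), ranged from 0 over 17.8 to 102 CPM in the Xcr1 dendritic cells and from 176 over 433 to 866 CPM in the cDC2/monocyte-like cells. It entered the test through the cDC2/monocyte-like cells alone, and the naming rule asked for the same direction in every mouse. Nothing is read from the gap between the groups. Cebpb, a myeloid transcription factor, was at 37.5 ± 39.6 CPM against 439 ± 288 CPM. Ccl9, a chemokine for myeloid cells (chr11:83572919-83578636, minus strand), had a UMI in the Xcr1 dendritic cells of 3 of 15 mice, at up to 34.5 CPM, and ranged from 176 over 464 to 975 CPM in the cDC2/monocyte-like cells. It had the largest fitted decrease of the genes called. Ccl5, which draws T cells and NK cells, was at 145 ± 326 CPM against 1800 ± 2289 CPM. Of the 24 cytokine and chemokine genes 11 were tested and 6 were lower (Ccl9, Ccl5, Ccl6, Ccl4, Ccl3 and Il1b), none higher, beside 5.42% lower of all genes tested. Of the 5 that had not passed the filter through 1 group alone Ccl4 and Il1b were lower, beside 3.13% of the 767 genes, and Il1b lost its call with thinning (edgeR adjusted p = 0.0719). Cybb was at 23.5 ± 51.5 CPM against 440 ± 184 CPM. Lyz2, lysozyme, was at 291 ± 131 CPM against 1659 ± 1059 CPM and lower in 7 of 7 mice. Wfdc17, Tmem176a, Isg15, an interferon-induced ubiquitin-like protein, and Ccrl2, an atypical chemokine receptor, were the other genes with the largest decreases. Of the genes of this paragraph Lyz2, Il1b and Ccl4 were the ones that did not enter the test through the cDC2/monocyte-like cells alone.

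Antigen presentation genes were again called in both directions. Of 9 MHC class II genes tested Ctss and Lgmn were lower and none higher, and of 14 genes of MHC class I and cross-presentation Psmb9 and Psmb8 were higher and Cybb and Rac2 lower. That is 2 of 9 and 4 of 14 genes, beside 7.45% of all genes tested, and in lists this small and chosen with earlier results known nothing is read from it. Psmb9, Cybb, Rac2 and Lgmn had passed the filter through 1 group alone. Psmb8 and Ctss lost their calls when cells were thinned to 2000 UMIs (edgeR adjusted p = 0.693 and 0.264), and Psmb8 also without the young and the old individual (0.186). Without the filter Psmb8, Ctss and Ctsb lost their calls (edgeR adjusted p = 0.331, 0.0697 and 0.204). Of 6 tested genes of the cDC2 and monocyte list Lyz2 and Il1b were lower, and of 4 macrophage genes Cd14, Lgmn and Ctsb were lower. Beside these stand 5.42% lower of all genes tested, and nothing is read from counts this small. The 4 tested genes each of the dendritic cell and proliferation lists gave no call. The cDC2 and monocyte list holds the 4 genes that chose the comparison cells, which were not tested.

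**Figure D2:**
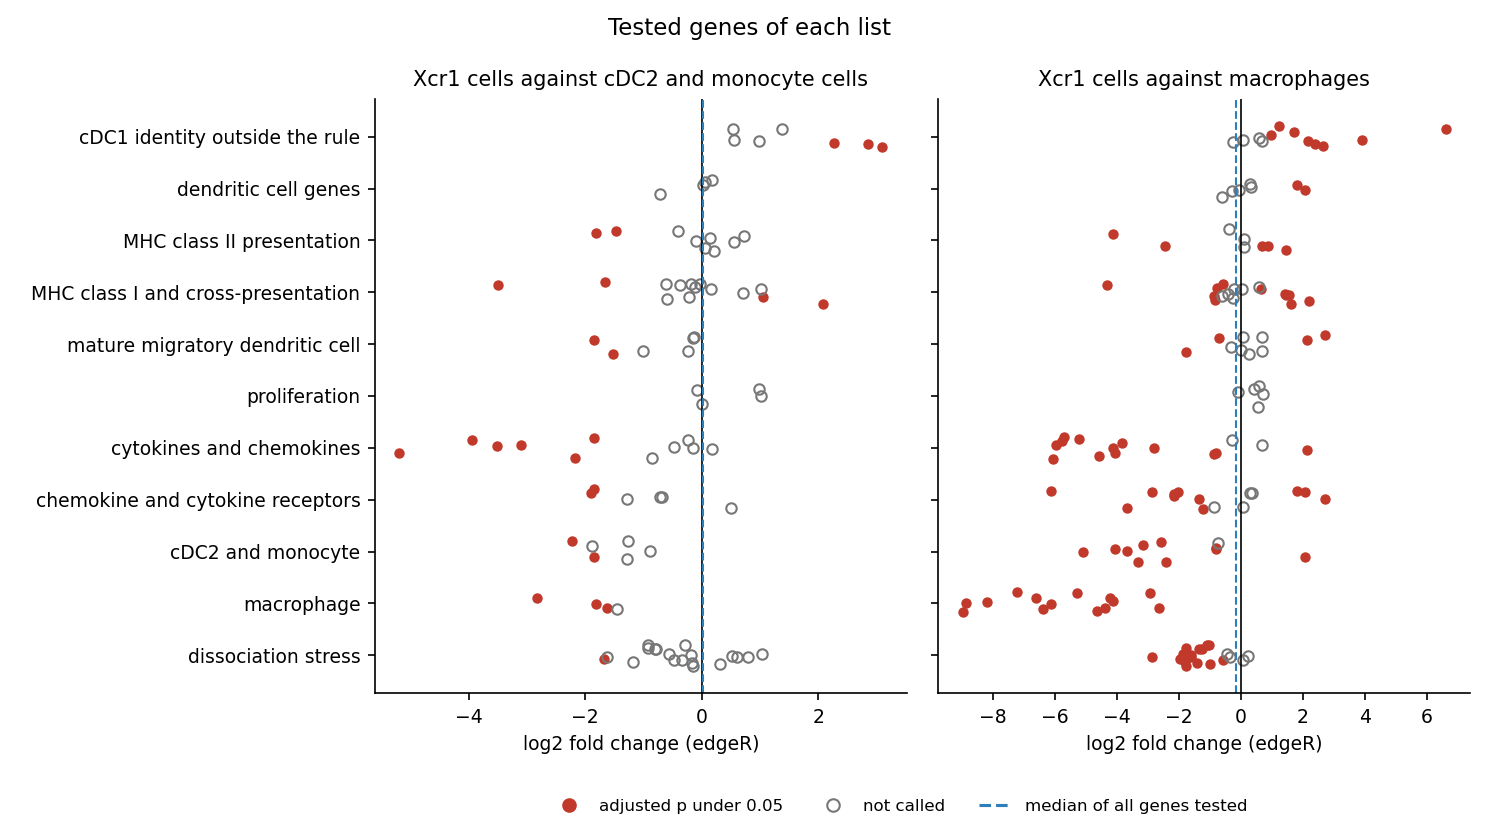
Points are the tested genes of each list, with the log2 fold change of Xcr1 dendritic cells over cDC2/monocyte-like cells (left, 7 mice) or macrophages (right, 15 mice) on the horizontal axis, filled red where edgeR's adjusted p was under 0.05 and open otherwise, and a dashed line at the median of all genes tested (0.02 and -0.14). All 14 macrophage genes lie below 0 on the right, and the genes of MHC class II presentation lie on both sides of it.

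Some genes of the cDC1 programme were too sparse for the test in the comparison with the cDC2/monocyte-like cells and are given as UMIs pooled over all mice. Btla, an inhibitory receptor, was seen in 44.7% of Xcr1 dendritic cells, in 4.72% of cDC2/monocyte-like cells and in 0.435% of macrophages. Flt3, the growth factor receptor of dendritic cells, was seen in 33.3%, 3.77% and 0.348% of cells, and its ligand gene Flt3l had 0 UMIs in the 141 cells. Kit, a related receptor that also marks mast cells, was seen in 48.2%, 13.2% and 0.696%, and of the other 6 mast cell and neutrophil genes 5 were at 0 in Xcr1 dendritic cells and Mcpt4, a mast cell protease, had 2 UMIs. Dpp4, CD26, was seen in 38.3%, 10.4% and 1.22% of cells. Sirpa, which marks cDC2 and macrophages, went the other way and was seen in 3.55%, 29.2% and 40.4%. Thinning to 1000 UMIs kept these orders, with Btla at 13.5%, 0.962% and 0% and Sirpa at 2.13%, 7.69% and 14.9%. Cd8a, which marks cDC1 of lymphoid organs, had 4 UMIs in 2 cells.

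The source of the XCR1 ligand lay elsewhere. In the whole series 448 cells had at least 2 UMIs of Xcl1, of which 369 (82.4%) were T or NK lymphocytes and 1 was an Xcr1 dendritic cell. Itgae was also seen in T and NK lymphocytes, of which 154 of 1161 had a UMI (13.3%), and these made up 39.9% of the 386 cells of the series with an Itgae UMI, so Itgae alone does not mark the class.

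The Xcr1 dendritic cells varied among themselves in maturation genes. At least 2 of 7 such genes (Ccr7, Ccl22, Ccl17, Il12b, Cd200, Socs2 and Fscn1) were seen in 57 of 141 cells (40.4%, exact 95% interval 32.3 to 49.0%), from 20 mice, and at least 3 of 11 cell cycle genes, Mki67 and Top2a among them, in 12 cells (8.51%, 4.48 to 14.4%), from 10 mice. Without the young and the old individual these were 56 of 127 (44.1%) and 11 of 127 (8.66%). Both were seen in 3 cells and neither in 75 (53.2%). Ccr7, which guides dendritic cells to lymph nodes, had a UMI in 61 cells (43.3%), and Ccl22 was seen in 36 of those 61 (59.0%) against 14 of the other 80 (17.5%). Il12b, the p40 chain of interleukin 12, was seen in 26 cells (18.4%), of which 19 had Ccr7, and it was seen in 1.89% of cDC2/monocyte-like cells and 4.44% of macrophages. Itgae was seen in 47.5% of the cells with Ccr7 and in 57.5% of those without. Cd207, langerin, was seen in 30 cells, of which 23 also had Itgae. These are counts of cells that share mice and depth, and they carry no test. The gene sets were chosen after the data were seen.

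Depth moved with these shares. The cells with maturation genes had a median of 6844 UMIs, those with cell cycle genes 10546 and those with neither 4095. The share with maturation genes was 49.1% for the aging pool and 50.0% for the diet pool, where the Xcr1 dendritic cells had a median of 7447 and 6142 UMIs. It was 7.14% in the young and old individual and 15.0% in the diet single-mouse libraries, where they had 1956 and 1693. Thinned to 1000 UMIs per cell, Ccr7 was seen in 24.6% and 20% of the cells in the pools and in 7.14% and 10.0% in the other libraries, from 14 and 20 cells.

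**Figure D3:**
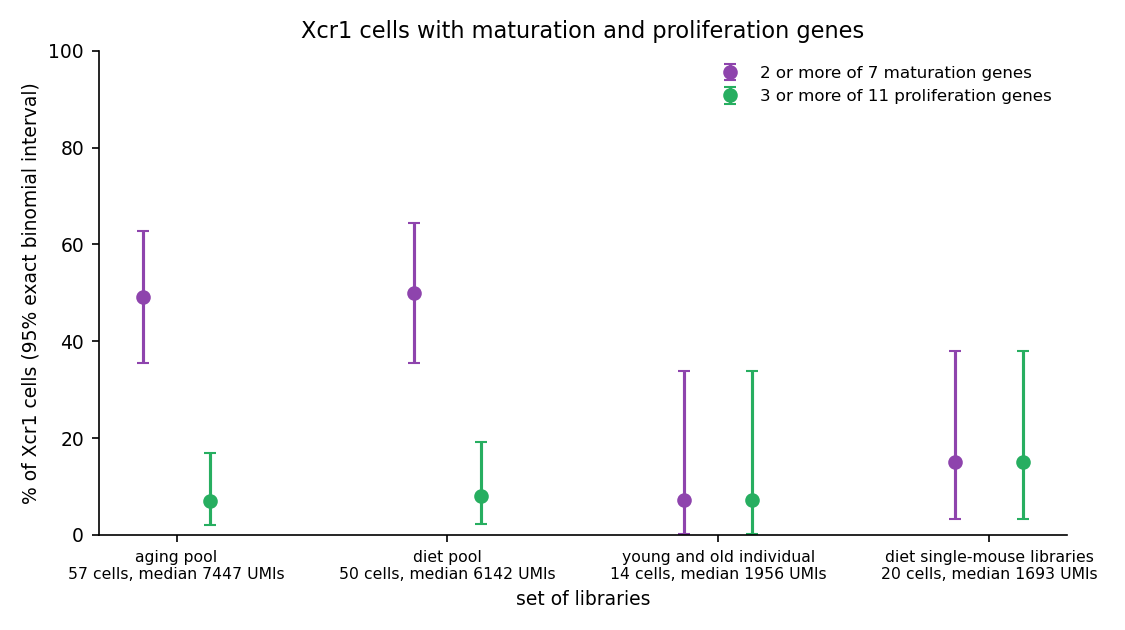
The vertical axis gives the percent of Xcr1 dendritic cells with at least 2 of 7 maturation genes (purple) and at least 3 of 11 proliferation genes (green) in each set of libraries, with exact 95% binomial intervals and, under each set, the number of cells and their median UMIs. Maturation genes were seen in 49.1% and 50.0% of cells in the pools and in 7.14% and 15.0% in the shallower cells of the other libraries.

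Summed per mouse, Ccr7 ranged from 31.1 over 312 to 894 CPM in the Xcr1 dendritic cells, from 133 over 621 to 1876 CPM in the cDC2/monocyte-like cells and from 0 over 30.4 to 148 CPM in macrophages. It was higher than in macrophages in 15 of 15 mice, and entered that test through the Xcr1 dendritic cells alone. It was lower than in the cDC2/monocyte-like cells in 6 of 7 mice (log2 fold change -1.85, SE 0.499, edgeR adjusted p = 0.0344), but this call was lost without the young and the old individual (-1.61, adjusted p = 0.131), with at least 3 cells per mouse over 13 mice (-1.20, adjusted p = 0.0954), without likely doublets (-1.75, adjusted p = 0.0790) and with thinning to 2000 UMIs (-0.41, adjusted p = 0.915). Of the 20 genes of mature migratory dendritic cells 6 were tested in that comparison, and Ccr7 and Marcksl1, an actin regulator, were lower, the second not without the filter on low counts (edgeR adjusted p = 0.0813). That is 2 of 6, beside 7.45% of all genes. Against macrophages 10 were tested, Ccr7 and Ccl22 were higher and Marcksl1 and Cd83, a maturation marker, lower, and Cd83 lost its call with at least 10 cells per mouse (edgeR adjusted p = 0.183). The 4 of 10 called are near the 42.7% of all genes, so nothing is read from either count. Of 15 proliferation genes 4 were tested in the first comparison and 5 in the second, and none passed.

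The share of Xcr1 dendritic cells in each mouse addresses whether age, rapamycin, diet or strain moved with their number. It ranged from 0% over a median of 0.792% to 3.42% of cells. Untreated 28-month mouse 1 had the highest share, with 17 of 497 cells (3.42%, exact 95% interval 2.00 to 5.42%), followed by caloric restriction mouse 2 with 15 of 687 cells (2.18%, 1.23 to 3.58%) and untreated 20-month mouse 1 with 7 of 323 cells (2.17%, 0.876 to 4.41%). One 3-month mouse of the aging pool had 0 of 710 cells, which allows a share of up to 0.423% by a floor of 3 counts and of up to 0.518% by the exact interval used for the other mice. In the single-mouse libraries the share was 0.0658 to 0.237%. A share of all cells moves with every other cell type in the suspension, and as a percent of macrophages the Xcr1 dendritic cells were 8.93% for the aging pool, 15.6% for the diet pool, 9.09% in the young and old individual and 54.1% in the diet single-mouse libraries, where only 37 macrophages were seen.

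**Figure D4:**
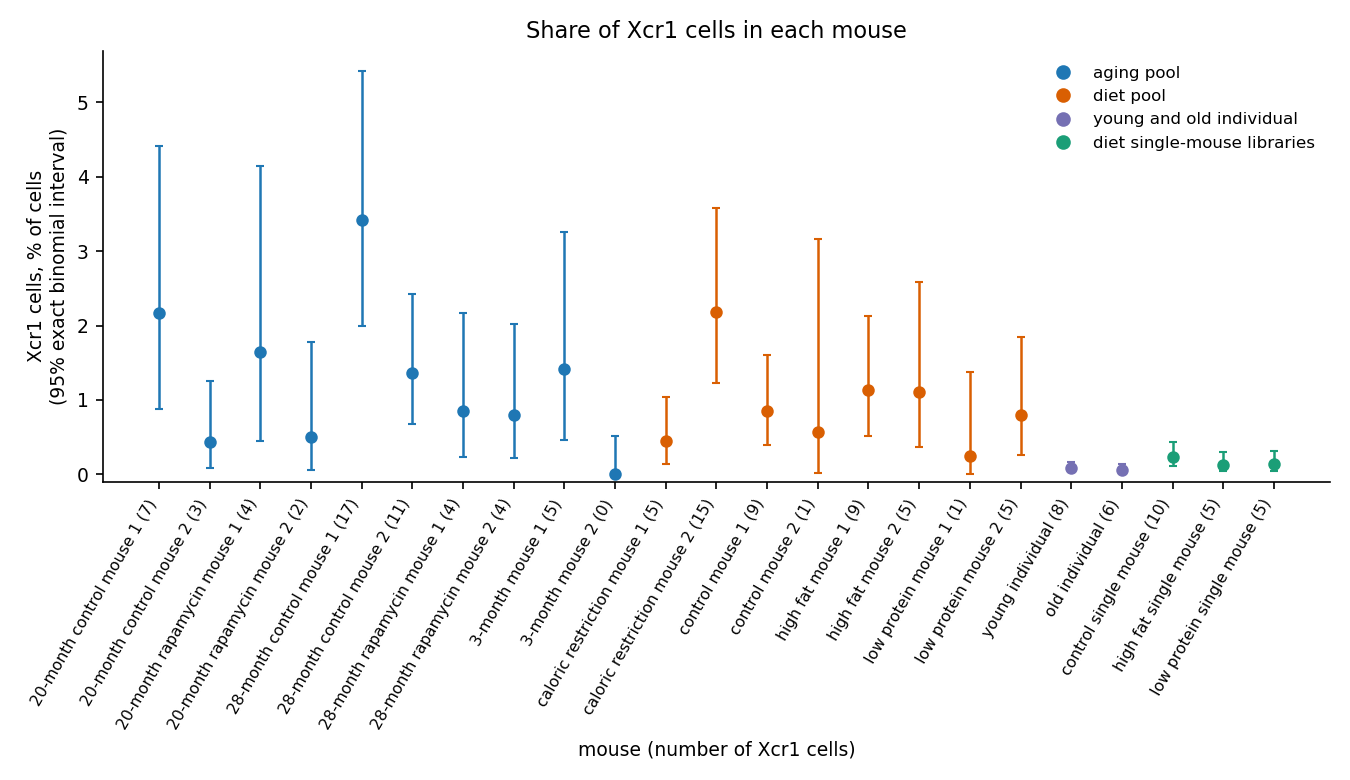
Points give the percent of Xcr1 dendritic cells among the cells of each mouse with an exact 95% binomial interval, coloured by set of libraries, with the number of Xcr1 dendritic cells after each mouse's name. The mice named control at 20 and 28 months were not given rapamycin, the highest share was 3.42%, and the single-mouse libraries lie at 0.0658 to 0.237%.

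None of the 4 comparisons of shares passed a test. Mice of 3 months in the aging pool had 0.704% ± 0.996 (SD, n = 2) and mice of 20 and 28 months 1.39% ± 1.01 (n = 8), a difference of 0.690 points (exact permutation test, two-sided, p = 0.444, 0.593 adjusted over 4 tests, where 0.0222 is the smallest p possible). Without the 3-month mouse that had no such cell the difference was -0.0139 points. Of the 8 older mice 4 had been given rapamycin, while neither 3-month mouse had, and the 4 untreated older mice had a mean of 1.84%. Rapamycin-treated mice of 20 and 28 months had 0.945% ± 0.488 (n = 4) and untreated ones 1.84% ± 1.27 (n = 4), a difference of -0.899 points (exact permutation test, two-sided, p = 0.257, 0.514 adjusted, smallest possible p 0.0286), which ranged from -0.374 without untreated 28-month mouse 1 to -1.37 without untreated 20-month mouse 2 (exact permutation p = 0.0857). Over the diets the means were 1.32% ± 1.23 with caloric restriction, 1.12% ± 0.0110 with high fat, 0.713% ± 0.196 with control and 0.521% ± 0.386 with low protein diet, with 2 mice each (exact permutation test of F, p = 0.657, 0.657 adjusted, smallest possible p 0.00952). The F statistic of 0.630 rose to 10.9 without caloric restriction mouse 1 (exact permutation p = 0.0381, unadjusted), which left 1 mouse on that diet. C57BL/6J mice had 1.26% ± 0.995 (n = 10) and FVB/NJ mice 0.615% ± 0.606 (n = 13), a difference of 0.641 points (permutation test, two-sided, p = 0.0739, 0.296 adjusted). Without the young and the old individual it was 0.543 points (permutation p = 0.147), between the aging pool and the diet pool (0.918% ± 0.597, n = 8) alone it was 0.339 points (exact permutation p = 0.429, chosen after seeing the data), and as a share of cells with a Ptprc (CD45) UMI it turned to -1.14 points (permutation p = 0.265). When cells were thinned to 2000 UMIs before the rule was applied, the differences were 0.190 points for age (exact permutation p = 0.756), -0.543 for rapamycin (0.257) and 0.291 for strain (permutation p = 0.196), and the F of the diets was 1.36 (exact permutation p = 0.429). Each library set held mice of 1 strain, so strain and library pool cannot be told apart.

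Finally, expression within the Xcr1 dendritic cells was compared between 4 C57BL/6J mice (the first 3-month mouse, the first untreated 20-month mouse and both untreated 28-month mice) and 11 FVB/NJ mice, again with edgeR's quasi-likelihood test. The value compares the pools as much as the strains, and ages differ as well. Reads of both strains were counted on mm10, and whether strain differences in sequence changed the counts was not tested. Of 1741 genes tested 6 differed (0.345%), all 6 higher in C57BL/6J mice (0 lower, with 161 genes in either direction at an unadjusted p under 0.05). H2-Eb1 and Bcl2a1d were the 2 called among the 1140 genes that had not passed the filter through 1 strain alone (0.175%), and the other 4 entered the test through the C57BL/6J mice alone. DESeq2 called 10. Without the first untreated 28-month mouse 19 genes differed and without the 3-month mouse 10, in both cases with the 6 among them. Without the young and the old individual, 8 genes differed over 13 mice, again with the 6 among them. The 6 were H2-Eb1, the beta chain of the MHC class II molecule I-E, the interferon-induced genes Cxcl10, Ifi207 and Isg15, BC004004, and, outside the naming rule and named after its values were seen, Bcl2a1d, a relative of BCL2. Among the lists, 1 of 10 tested MHC class II genes and 1 of 11 tested cytokine genes were called.

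H2-Eb1 (chr17:34305867-34316674, plus strand) was at 6150 CPM in the 3-month, 8636 CPM in the 20-month, and 6311 and 7987 CPM in the 28-month C57BL/6J mice, and from 0 over 217 to 488 CPM in the FVB/NJ mice. The strains did not overlap (log2 fold change 4.87, SE 0.397, edgeR adjusted p = 7.77e-08). The neighbouring class II chain H2-Ab1 was alike in both, at 7578 ± 1030 CPM against 7713 ± 1872 CPM, and did not pass. The same pattern was seen outside the Xcr1 dendritic cells, with median H2-Eb1 of 7050 CPM in C57BL/6J and 312 CPM in FVB/NJ macrophages, which was not tested.

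Cxcl10, a chemokine for T cells and NK cells, was at 675 CPM in the 3-month, 230 CPM in the 20-month and 291 and 863 CPM in the 28-month C57BL/6J mice. In FVB/NJ mice it was at 0 in 7 of 11 and at most 81.0 CPM. Ifi207, a DNA-sensing family member, was at 202 ± 46.6 CPM against 15.4 ± 29.1 CPM and BC004004 at 252 ± 34.2 CPM against 28.0 ± 35.2 CPM. Cxcl10, Ifi207 and BC004004 entered the test through the C57BL/6J mice alone, so nothing is read from their gaps between the strains. Isg15 was at 213, 664, 33.0 and 495 CPM in the same order against 0 to 105 CPM, so that the 28-month mouse at 33.0 CPM overlapped the FVB/NJ range. Its call was lost without the 20-month mouse or the second 28-month mouse. Bcl2a1d was at 592 ± 197 CPM against 100 ± 84.9 CPM. Ifi207 and Bcl2a1d belong to families of similar copies, between which the counting could divide reads. With at least 10 cells per mouse 4 mice remained and none of these genes passed, with H2-Eb1 at a log2 fold change of 4.51 (edgeR adjusted p = 0.0517). In macrophages the medians were 1943 against 916 CPM for Cxcl10, 1470 against 853 CPM for Isg15 and 676 against 205 CPM for Ifi207, with C57BL/6J first, and those differences were not tested.

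**Figure D5:**
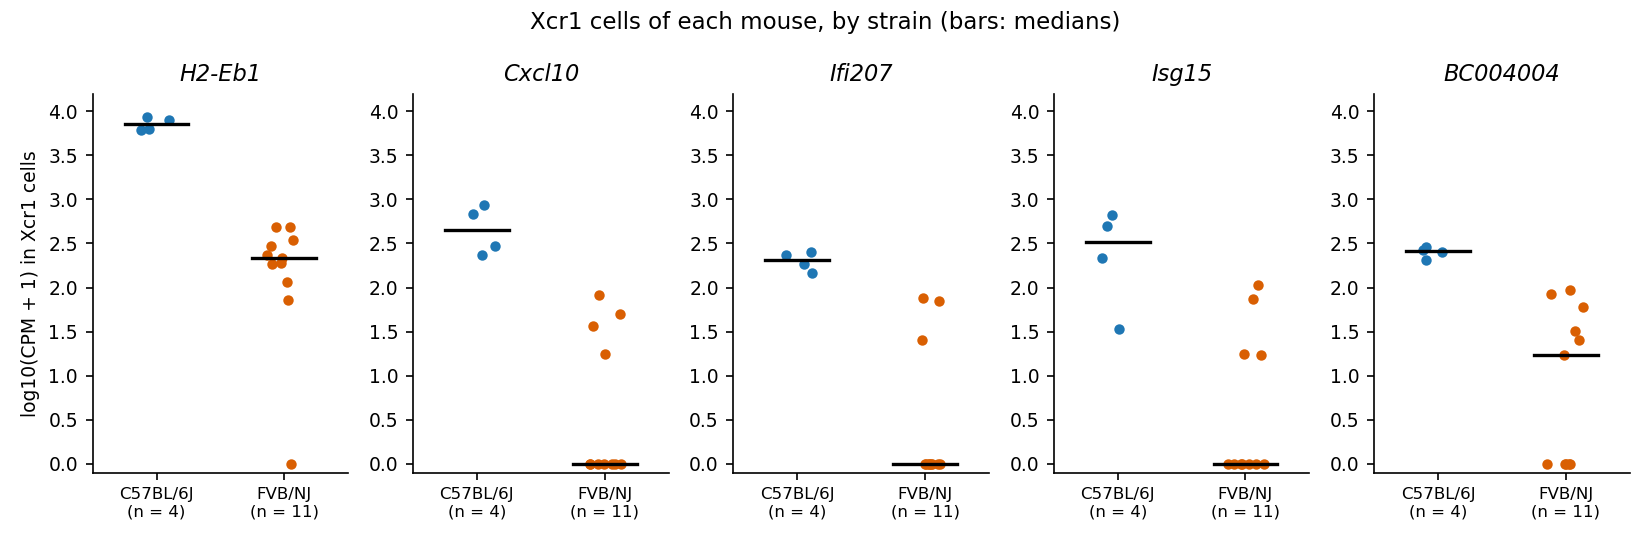
Each panel plots the level of 1 gene in the Xcr1 dendritic cells as log10(CPM + 1), with a point for each mouse and a bar at the median, for 4 C57BL/6J and 11 FVB/NJ mice. H2-Eb1 lay at 6150 to 8636 CPM in C57BL/6J and at most at 488 CPM in FVB/NJ mice, and the lowest C57BL/6J value of Isg15 lay within the FVB/NJ range.

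To show the DNA beside the 3 interferon-induced genes, the 250 bases before each start were searched on both strands for GAAA, followed by any 2 bases and GAAA again, the repeat that interferon regulatory factors, IRF8 among them, can bind. The motif and the genes were chosen after the values were seen. It was found before Cxcl10, Ifi207 and Isg15 and not before H2-Eb1, BC004004 and Bcl2a1d, that is in 3 of the 6 genes, and in 978 of 32851 RefSeq promoters of the same length (2.98%). Nothing is read from these shares. The 3 genes were picked as interferon-induced and had entered the strain test through the C57BL/6J mice alone. The sequences are from RefSeq on GRCm38.p6, 5′ to 3′ toward the gene on the minus strand, and capitals mark the motif. The match begins 213 bases before the start of Cxcl10 (chr5:92348890-92349139), 41 bases before that of Ifi207 (chr1:173741810-173742059), and 78, 72 and 66 bases before that of Isg15 (chr4:156200819-156201068), where the 3 matches overlap. A match is a stretch of letters and not a bound site.
Cxcl10: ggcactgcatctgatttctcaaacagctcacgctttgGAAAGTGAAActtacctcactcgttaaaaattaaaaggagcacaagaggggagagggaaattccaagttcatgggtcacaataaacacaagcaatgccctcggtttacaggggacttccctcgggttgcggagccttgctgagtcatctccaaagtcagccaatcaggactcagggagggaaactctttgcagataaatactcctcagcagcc
Ifi207: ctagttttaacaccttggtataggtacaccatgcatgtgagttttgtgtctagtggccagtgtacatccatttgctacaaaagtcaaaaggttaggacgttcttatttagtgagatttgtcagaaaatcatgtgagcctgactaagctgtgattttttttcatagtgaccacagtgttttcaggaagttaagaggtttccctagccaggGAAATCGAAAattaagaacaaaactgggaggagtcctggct
Isg15: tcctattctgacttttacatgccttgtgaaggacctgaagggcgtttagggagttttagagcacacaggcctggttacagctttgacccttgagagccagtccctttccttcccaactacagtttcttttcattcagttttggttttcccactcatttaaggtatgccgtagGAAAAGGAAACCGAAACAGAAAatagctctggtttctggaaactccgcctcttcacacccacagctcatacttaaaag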

How the data were processed

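The authors deposited raw UMI counts per gene and cell, from droplet-based 3′ libraries of 7 samples, as 1 matrix for each of 23 mice. Per the labels and headers, Cell Ranger 6.0.1 was used for the pools, whose mice carried sample tags, and Cell Ranger 3.1.0 for the single mice, both on mm10, and Seurat followed in the study but was not used here. The study states a limit of 1% on mitochondrial genes, and the limit here was 10%. The 30406 genes shared by both references were kept, which held all but at most 0.433% of the UMIs of any mouse.

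Cells of the rule and of 2 comparison groups were summed per mouse and tested with edgeR 4.0.16 in R 4.3.3 (TMM scaling, filterByExpr with a minimum count of 3 and a minimum total of 15, mouse as a block). A gene was counted as having passed the filter through 1 group alone if it would have failed had all samples reached the limit at the other group's rate, a split chosen after seeing the data, and the limit was 93.2 CPM between strains. The block was used because cells of both groups came from the same mouse. Shares of cells were compared over mice by permutation in SciPy 1.17.1, and likely doublets were scored with Scrublet in Scanpy 1.11.5. The procedure was also run on counts simulated with the same relative gene means in every mouse, unlike the data. The outcome of that run is not given here and no result rests on it. Alternatives were DESeq2 1.42.0, other scalings, filters, cell minimums and depths, and omission of single mice. Genes outside the lists were named as the 10 with the largest changes in each direction among those at an adjusted p under 0.05 that moved the same way in every mouse tested and reached 50 CPM on the higher side, and for strain as the 5 with the largest. The members, the 21 gene lists and the tests were chosen with earlier results of these data known. Of 275 listed genes 4 had no counts here. Single values of some listed genes are not reported here. Whether mice are littermates was not given in the sources used here. Of the 6 genes called between strains all 6 matched the RefSeq promoter table. T and NK lymphocytes were cells with at least 2 UMIs of Cd3e, Cd3d, Cd3g and Nkg7 together, under 5 of Cd74, at most 2 of the C1q genes and 0 of Cd79a, a rule chosen after seeing the data.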

Additional observations from a re-analysis of the deposited data

Results flagged for a closer look

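Among the 8 mice of the diet pool, caloric restriction mouse 2 stood apart with a share of Xcr1 dendritic cells of 2.18% of its cells (15 of 687), farther from the next mouse, relative to the range of the pool, than Dixon's 95% limit allows. It was the 1 value past the limit among 24 tests of a highest or lowest mouse, 14 of them on the share, and chance alone flags about 1 in 20 such groups. The other mouse on the same diet had 0.449% (5 of 1114 cells). The median depth of the Xcr1 dendritic cells was 7365 UMIs in the first mouse and 3175 in the second, and Svs5 was at 34607 CPM over all cells of the first, the lowest of the 21 mice outside the young and old individuals, and at 108862 CPM in the second. Their part in the share was not tested.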

How the results depend on the processing

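The number of Xcr1 dendritic cells was 146 without the mitochondrial limit, 147 with at least 200 genes, 95 with at least 3 UMIs of the rule's genes and 139 without likely doublets. No share comparison passed its test under the alternatives, with 1 exception. Thinning to 2000 UMIs per cell brought the strain, age and rapamycin differences from 0.641, 0.690 and -0.899 to 0.291, 0.190 and -0.543 points, and in the pools alone (chosen after seeing the data) the strain difference was 0.339 points. The diets' F ranged from 0.282 to 10.9 when each mouse was left out in turn, and passed without caloric restriction mouse 1 (10.9, exact permutation p = 0.0381, unadjusted). The age difference ranged from -0.0139 to 1.39 points when each mouse was left out and changed sign without the second 3-month mouse, the rapamycin difference ranged from -1.37 to -0.374 points, and the strain difference changed sign as a share of Ptprc cells (-1.14 points).

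Against the cDC2/monocyte-like cells, 120 genes differed with at least 3 cells per mouse, 42 with edgeR's default filter (chosen after seeing the data) and 31 with cells thinned to 2000 UMIs, in place of 77. The higher and lower genes were 58 and 62, 12 and 30, and 3 and 28 in that order, in place of 21 and 56. Without likely doublets 62 genes differed over 6 mice, 55 of them among the 77. A minimum of 10 cells could not be fitted and was not run. Against macrophages the counts were 2154 without a filter, 513 with the default filter and 577 thinned, in place of 1013. Between strains they were 10 with DESeq2, 144 without a filter, 2 with the default filter, 12 with at least 3 cells and 0 with at least 10 cells per mouse (119 at an unadjusted p under 0.05), and 5 to 19 with each of the 4 C57BL/6J mice left out in turn, in place of 6. No FVB/NJ mouse was left out on its own. Without the mouse block (no replicate block) 70 genes differed from the cDC2/monocyte-like cells and 992 from macrophages, 62 and 941 of them among the main calls, and Ccl5, Isg15, Rac2, Lgmn, Tmsb10 and Cyb5a lost their calls in the first, Jund and Klf4 in the second. Of the 34 genes followed through the alternatives against the cDC2/monocyte-like cells, the 103 against macrophages and the 5 between strains (Bcl2a1d was not followed), none reversed its direction in any alternative that gave it a value. Calls were lost under at least 1 alternative by 21 of the 34, 13 of the 103 and all 5. With the filter used, 10 of 22 cDC1 genes were untested against macrophages and 15 against the cDC2/monocyte-like cells.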
